A study of Sus scrofa and Bos taurus with 31 samples.

Results

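The 10 genes described here encode the precursors of hypothalamic peptides: POMC, AVP, OXT, AGRP, NPY, TRH, CRH, HCRT, GHRH and GNRH1. They were chosen by name for their known role in the hypothalamus, not by a measured value, and all 10 were found among the 20674 protein-coding genes of the Sscrofa11.1 annotation. The assay was ATAC-seq, in which a transposase cuts open chromatin and regions with an excess of cuts are called as peaks, carried out on nuclei from 8 tissues of 2 pigs named P348 and P350. Both animals were castrated male Yorkshire littermates of 6 months, and each tissue (hypothalamus, cerebral cortex, cerebellum, subcutaneous adipose, liver, lung, skeletal muscle and spleen) gave 1 library per animal, 16 in all. Each library was made from whole tissue, so a peak present in a few cells and a peak that is weak in many cells cannot be told apart, and peptide neurons form small groups of cells within the hypothalamus.

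Neuropeptides are cut from larger precursors, packed into dense-core vesicles and released from neurons. In the arcuate nucleus, POMC neurons restrain feeding through melanocortin peptides, while neurons that make AGRP and NPY promote it. AVP and OXT are made by large neurons whose axons end in the posterior pituitary, CRH, TRH, GHRH and GnRH reach the anterior pituitary by the portal vessels, and HCRT neurons of the lateral hypothalamus sustain wakefulness.

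For each gene and library, the bases covered by peaks within the gene and 10 kb either side were divided by all peak bases of the library, and this accessibility level is given as peak bases per Mb. Peak lists held between 99960 and 217308 peaks over 64.1 to 156 Mb. The hypothalamus lists held 105665 peaks (P348) and 146884 peaks (P350). A gene was said to have a TSS peak when a peak came within 2 kb of an annotated transcription start site.

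The accessible regions of the 10 genes were set beside those of the whole genome. Peaks of the 16 libraries merged into 67 regions in the 10 windows, of which 15 held a peak in both hypothalamus libraries, 5 held one in all 16 libraries and 45 held none from the hypothalamus. Over the whole genome, 12.9% of the 533944 merged regions had a peak in both hypothalamus libraries and 3.15% had one in all 16. The share of all regions without a hypothalamus peak was not computed, so the count of 45 has no background. A peak in both hypothalamus libraries and none outside the brain occurred in 1 of the 67 regions, upstream of GHRH, beside 0.780% of all regions.

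Some stretches of sequence are printed first for reference, and a link between sequence and peak level was not tested. The first pair are the promoters (250 bases before to 50 after the start site, in the direction of the gene, build Sscrofa11.1) of the gene with the highest hypothalamic level relative to other tissues, NPY, at chr18:47993677-47993976 on the minus strand, and of a gene with no hypothalamic peak, AVP, at chr17:32580984-32581283 on the plus strand. Capitals mark CpG dinucleotides.
NPY promoter: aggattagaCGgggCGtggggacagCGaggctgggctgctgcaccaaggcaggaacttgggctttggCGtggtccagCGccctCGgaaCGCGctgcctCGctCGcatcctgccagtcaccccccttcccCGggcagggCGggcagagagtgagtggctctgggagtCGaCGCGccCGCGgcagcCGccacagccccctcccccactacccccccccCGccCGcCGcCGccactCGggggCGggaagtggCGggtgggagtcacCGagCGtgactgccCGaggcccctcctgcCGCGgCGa
AVP promoter: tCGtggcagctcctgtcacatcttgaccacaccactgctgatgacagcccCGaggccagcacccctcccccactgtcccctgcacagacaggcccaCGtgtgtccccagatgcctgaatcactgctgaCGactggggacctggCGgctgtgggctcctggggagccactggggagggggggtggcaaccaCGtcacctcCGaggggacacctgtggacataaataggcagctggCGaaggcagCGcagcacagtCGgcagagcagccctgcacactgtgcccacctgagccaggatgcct
The NPY stretch held 31 CpGs at a GC content of 74.3%, and the AVP stretch 10 CpGs at 65.3%. By observed over expected CpG they ranked at percentiles 58.8 and 23.1 of the 47447 start sites of protein-coding genes. Of the 17 annotated start sites of the 10 genes, 13 lay below the median in this ratio, and the range ran from percentile 4.48 at the inner AGRP start site to 86.8 at the inner GHRH start site.

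The other 3 stretches are 300 bases each from regions away from the start sites, on the plus strand, centred on the part of the region shared by the peaks of both hypothalamus libraries (for the muscle region, of both skeletal muscle libraries): the brain region upstream of GHRH (chr17:40400558-40400857), the region inside GHRH with the strongest peaks in skeletal muscle (chr17:40396411-40396710), and the region upstream of NPY with a peak in both hypothalamus libraries (chr18:48001116-48001415). Capitals mark TAATTA, a core bound by many homeodomain factors, or TATAAA, the TATA motif, both searched on either strand.
GHRH upstream: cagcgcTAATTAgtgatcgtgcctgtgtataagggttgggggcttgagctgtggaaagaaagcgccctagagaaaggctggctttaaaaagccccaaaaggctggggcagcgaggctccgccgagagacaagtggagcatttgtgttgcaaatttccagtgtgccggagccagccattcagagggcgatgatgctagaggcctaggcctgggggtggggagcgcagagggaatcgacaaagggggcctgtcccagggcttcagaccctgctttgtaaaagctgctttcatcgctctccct
GHRH muscle: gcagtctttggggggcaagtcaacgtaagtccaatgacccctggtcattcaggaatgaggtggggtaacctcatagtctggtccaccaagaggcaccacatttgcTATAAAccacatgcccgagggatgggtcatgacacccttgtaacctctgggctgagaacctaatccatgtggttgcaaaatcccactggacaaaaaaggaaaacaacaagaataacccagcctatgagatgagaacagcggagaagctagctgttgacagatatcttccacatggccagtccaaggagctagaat
NPY upstream: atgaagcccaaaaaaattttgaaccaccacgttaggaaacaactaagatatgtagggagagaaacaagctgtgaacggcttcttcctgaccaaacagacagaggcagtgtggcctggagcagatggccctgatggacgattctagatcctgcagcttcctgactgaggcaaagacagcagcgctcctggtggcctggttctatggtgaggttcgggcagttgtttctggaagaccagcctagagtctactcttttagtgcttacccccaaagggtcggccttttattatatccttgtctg
TAATTA lay in the GHRH upstream stretch, and 6.78% of equally long stretches over all merged regions held it. TATAAA lay in the GHRH muscle stretch and in 15.4% of those stretches. The stretches behind both shares were centred on the middle of each merged region, not on a shared part of its peaks, so these shares are a rough background. The NPY upstream stretch held neither.

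The levels of each gene in each library are drawn as a heat map, with the genes grouped by role.

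**Figure D1:**
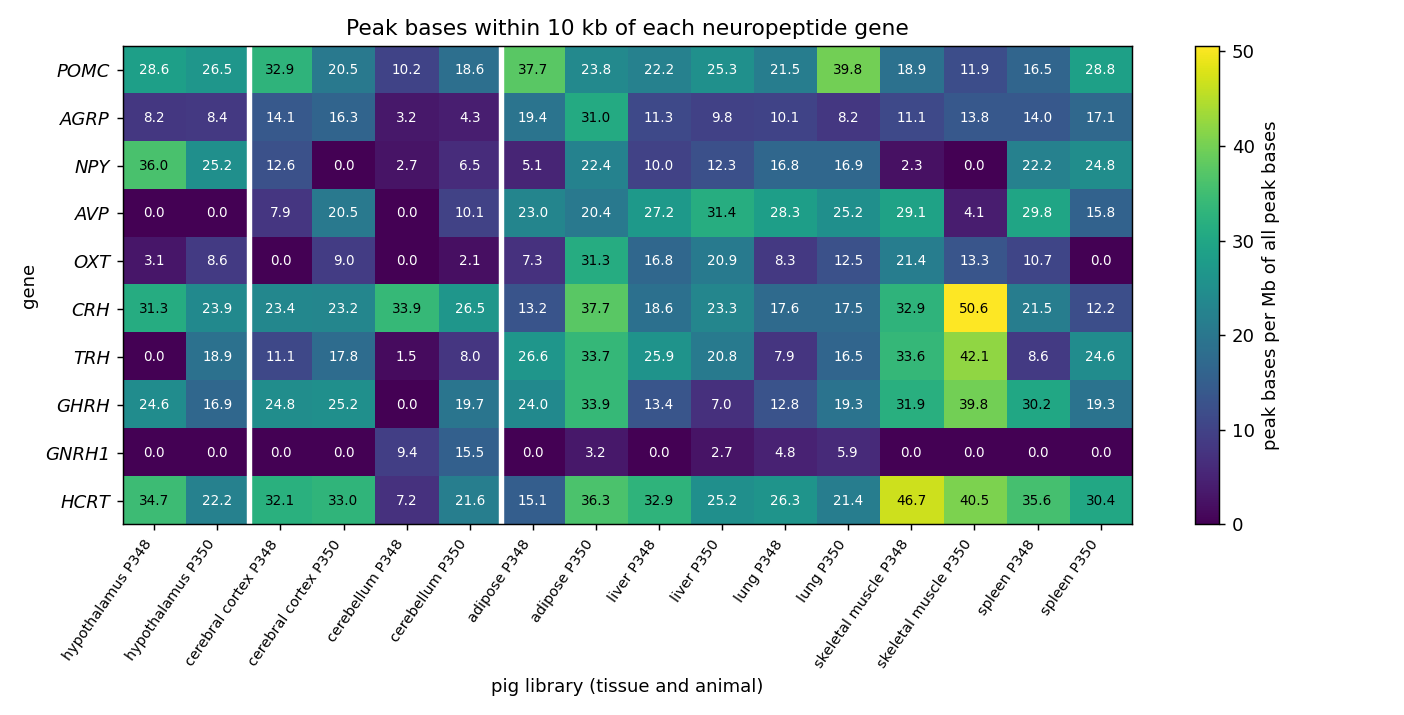
Heat map of peak bases per Mb of all peak bases (colour and printed values) within 10 kb of each gene (rows) in 16 pig libraries (columns), hypothalamus first, then the other brain tissues, then the tissues outside the brain. NPY is the only row in which both hypothalamus cells (36.0 and 25.2) exceed the 14 others, AVP and GNRH1 are at 0 in both, and the largest value of the map is CRH in a muscle library (50.6).

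NPY, which encodes a potent stimulant of feeding, was the only gene of the 10 with both hypothalamus libraries above the 14 others. Its level was 36.0 in P348 and 25.2 in P350. The other libraries ran from 0 through a median of 11.2 to 24.8 in spleen P350. The groups did not overlap, but the lower hypothalamus library stood just above the highest spleen library, and spleen P348 at 22.2 and adipose P350 at 22.4 were also near it. Among all 19906 protein-coding genes with peak bases in at least 1 library, 0.548% had both hypothalamus libraries on top. The hypothalamus had the highest of the 8 tissue means for 4.64% of genes and for NPY alone among the 10. The mean difference was 19.5 peak bases per Mb (30.6 ± 7.63, SD, n = 2, against 11.0 ± 8.60, SD, n = 14; exact two-sided permutation p = 0.00833, the smallest that 120 choices of 2 libraries allow). After Benjamini-Hochberg adjustment over all genes the exact p was 1, as for every gene, so no single gene passed. With a smallest p of 0.00833, a gene could pass only if a large share of all genes had that same p. The adjusted test therefore cannot tell whether a single gene differed.

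In both hypothalamus libraries the NPY peak ran over the start site, covering 1439 bases in P348 and 1526 in P350. That region, 663 bases before to 1276 after the start site and including coding exon sequence, held a peak in 14 libraries, and cortex P350 and muscle P350 had none. Its folds over background were low everywhere, 3.33 and 2.68 in the hypothalamus and between 2.55 and 3.82 in all. A further peak lay 8.30 to 7.12 kb upstream in both hypothalamus libraries, with folds of 3.29 and 2.60, and also in liver P350 and lung P350, with folds of 2.90 and 3.35. Another, inside an intron, was called in hypothalamus P350 alone. With peaks limited to a q-value under 0.01 the NPY difference was 21.3 with an exact permutation p of 0.15, and under 0.0001 it was -2.99, with an exact permutation p of 1. With only the 2 kb around the start site it was 9.48 (exact permutation p = 0.175), and with a 50 kb window 20.3 (exact permutation p = 0.367).

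POMC, whose product is cut into melanocortins, ACTH and beta-endorphin, had similar levels in hypothalamus and elsewhere. The hypothalamus libraries stood at 28.6 and 26.5, inside the range of the others (lowest 10.2, median 21.8, highest 39.8). Lung P350 and adipose P348 were highest, and 4 libraries lay above both hypothalamus values and 10 below. The difference of 4.12 was within the spread (exact two-sided permutation p = 0.55). The strongest POMC region lay at the 3' end of the gene, 5.79 to 7.59 kb from the first start site and overlapping coding exon sequence, and held a peak in all 16 libraries. Its fold was 8.26 in liver P348, the highest, and 5.96 and 4.96 in the hypothalamus. At the 5' end a peak lay within 2 kb of a start site in 13 libraries, both hypothalamus libraries among them, but it covered a start site in 6 libraries, hypothalamus P348 among them. Another region with a peak in both hypothalamus libraries, 8.41 to 6.03 kb upstream, was present in 13 libraries at folds of 2.39 to 3.14.

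AGRP, an antagonist of the melanocortin receptors, had nearly equal and low hypothalamus levels, 8.16 and 8.45. The other libraries ran from 3.18 in cerebellum P348 through a median of 12.5 to 31.0 in adipose P350. Of these, 11 lay above both hypothalamus libraries and 2, both from the cerebellum, below (difference -4.81, exact two-sided permutation p = 0.292). The region that gave AGRP its TSS peak, 1.88 to 4.12 kb from the outer start site, also lay within 2 kb of the start site of ATP6V0D1, a subunit gene of the vacuolar proton pump. It held a peak in all 16 libraries with folds from 3.24 to 11.3, highest in liver P348 and at 7.01 and 9.53 in the hypothalamus. In both hypothalamus libraries this peak covered the annotated start of ATP6V0D1 and no AGRP start site. A peak covered an AGRP start site itself in 1 library, adipose P350. A region 3.19 to 2.53 kb upstream held a peak in 12 libraries, hypothalamus P350 among them.

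AVP, the antidiuretic hormone gene, had no peak within 10 kb in either hypothalamus library. Cerebellum P348 was also at 0, and the other 13 libraries had a level between 4.07 and 31.4, with liver P350 highest. The groups met only at that cerebellum library, and the median of the 14 others was 21.8. Of all genes tested, 5.01% had no peak bases in either hypothalamus library and 0.402% had both below the 14 others. The difference was -19.5 peak bases per Mb (0 against 19.5 ± 10.3, SD, n = 14; exact two-sided permutation p = 0.025, adjusted p = 1). Among all genes an unadjusted p under 0.05 occurred for 2.10% with a higher and 0.492% with a lower hypothalamus. With peaks limited to a q-value under 0.01 the difference was -14.7 (exact permutation p = 0.3), under 0.0001 it was -9.41 (exact permutation p = 0.642), with lists of equal length -17.6 (exact permutation p = 0.15) and with only the 2 kb around the start site -12.7 (exact permutation p = 0.0583).

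The AVP region around the start site and gene body, 1.04 kb before to 2.04 kb after the start site and overlapping coding exons, held a peak in 13 libraries with folds of 2.60 to 4.38. In 6 of them, all from outside the brain, a peak covered the start site. In both cortex libraries, cerebellum P350, muscle P350 and spleen P350 the peak lay further into the gene, as the map of peaks shows. Adipose P348 and spleen P348 also had no peak over the start site. A region 11.5 to 13.9 kb from the start site, most of it beyond the window, held a peak in 12 libraries, hypothalamus P350 among them.

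OXT, the oxytocin gene, lies on the same chromosome as AVP, facing it, and their windows were 2440 bases apart. Its hypothalamus levels were 3.06 and 8.58. The others ran from 0 in the P348 libraries of cortex and cerebellum and in spleen P350 through a median of 9.84 to 31.3 in adipose P350, so the groups overlapped (difference -5.16, exact two-sided permutation p = 0.508). The region over the OXT start site held a peak in both hypothalamus libraries and 9 others, and hypothalamus P348, with a fold of 3.34, had the highest fold of the region. A region 2.08 to 1.68 kb upstream held a peak in both skeletal muscle libraries only, with folds of 6.59 and 4.78. This muscle pattern was shared by 2.00% of all merged regions.

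**Figure D2:**
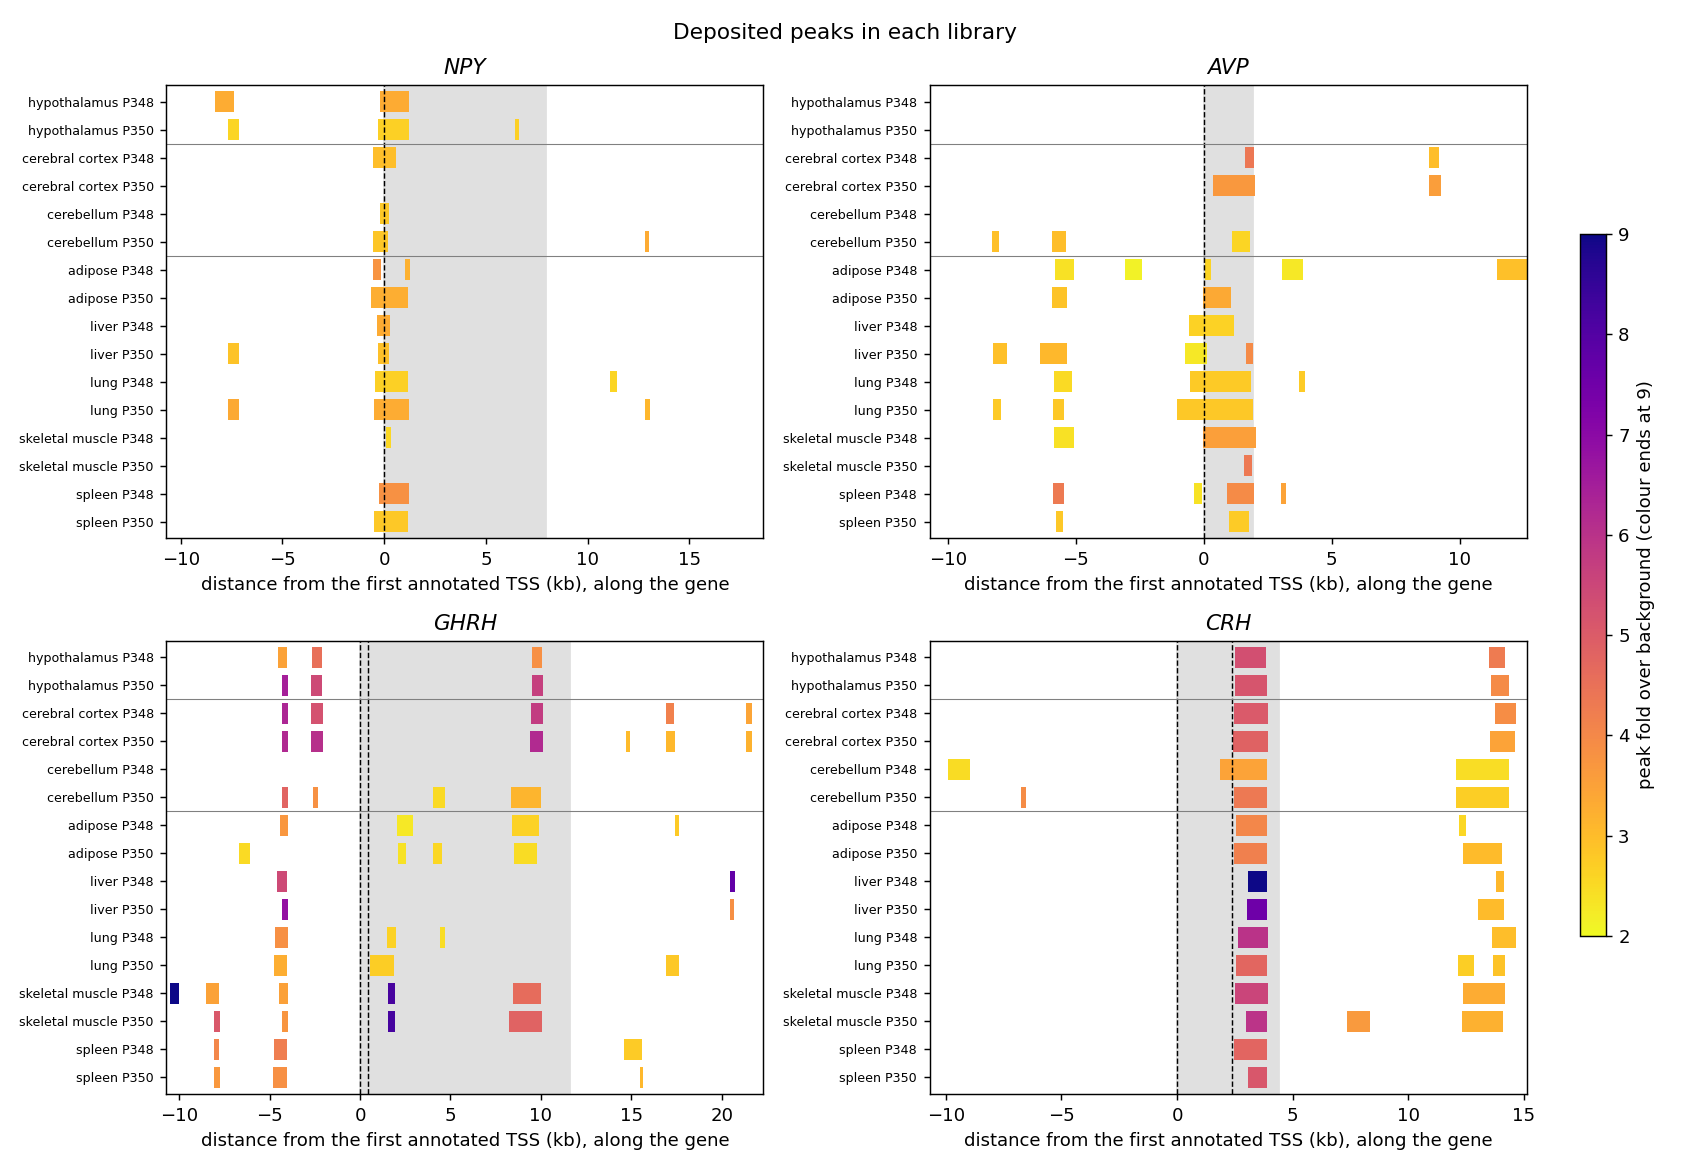
Peaks of NPY, AVP, GHRH and CRH in 16 libraries (rows) by distance in kb from the first annotated start site along the gene, coloured by peak fold over background. Grey marks the gene, dashed lines its start sites. The AVP rows of both hypothalamus libraries are empty, and the GHRH region near -2.5 kb is filled in 5 brain libraries and in none outside the brain.

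CRH encodes the releasing hormone that drives ACTH secretion. The hypothalamus libraries, at 31.3 and 23.9, lay among the others (lowest 12.2, median 23.3, highest 50.6), with both muscle libraries, cerebellum P348 and adipose P350 above both (difference 2.45, exact two-sided permutation p = 0.767). Its main region reached from before the inner start site to the coding exon, 1.85 to 3.95 kb from the outer start site, and held a peak in all 16 libraries. The fold was 11.15 in liver P348 and 7.52 in liver P350, and 5.29 and 5.15 in the hypothalamus. In 1 library, cerebellum P348, the peak covered the inner start site, and in the others it lay within the gene. A downstream region, 12.1 to 14.7 kb from the outer start site and inside TRIM55, held a peak in 14 libraries, spleen excepted. There the hypothalamus libraries had the highest folds, 4.28 and 3.96, followed by cortex P348 with 3.90. With peaks limited to a q-value under 0.0001 the CRH difference became 43.3 peak bases per Mb (exact permutation p = 0.0417).

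TRH, the thyrotropin-releasing hormone gene, differed between the animals. Hypothalamus P348 had no peak in the window and stood at 0, and hypothalamus P350 stood at 18.9. The others ran from 1.54 in cerebellum P348 through a median of 19.3 to 42.1 in muscle P350 (difference -10.5, exact two-sided permutation p = 0.267). The TSS region held a peak in 12 libraries at folds of 2.50 to 3.41, hypothalamus P350 among them. A downstream region 10.1 to 12.0 kb from the first start site was stronger, with a peak in 14 libraries and folds up to 6.57 in liver P350.

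GHRH, which encodes the releasing hormone for growth hormone, had the most regions of the 10 genes, 13, and no TSS peak in the hypothalamus. Its levels were 24.6 and 16.9 in the hypothalamus, against 0 in cerebellum P348, a median of 21.9 and 39.8 in muscle P350 (difference -0.762, exact two-sided permutation p = 0.908). The region 2.73 to 2.06 kb upstream held a peak in both hypothalamus libraries (folds 4.52 and 5.44), both cortex libraries (5.25 and 6.06) and cerebellum P350 (3.81). No library from outside the brain had a peak there. A second region, 8.23 to 10.1 kb into the gene and overlapping a coding exon, held peaks in 9 libraries, with 3.84 and 5.69 in the hypothalamus and 5.75 and 6.19 in the cortex, and also in cerebellum P350 and in both adipose and both muscle libraries. Another, 4.80 to 3.98 kb upstream, was present in 14 libraries.

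Skeletal muscle, by contrast, had a peak of fold 8.20 and 8.23 within the GHRH gene, 0.550 to 1.96 kb from the outer start site over an untranslated exon. Both lung libraries had weaker peaks there, with folds of 2.65 and 2.72, and no brain library had one. No library had a peak over a GHRH start site.

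GNRH1, the gonadotropin-releasing hormone gene, was the least accessible. It had peaks in 6 libraries, at 9.36 and 15.5 in the cerebellum and at 2.74 to 5.94 in adipose P350, liver P350 and both lung libraries. The hypothalamus, cortex, muscle and spleen libraries and the P348 libraries of adipose and liver were at 0 (difference -2.97, exact two-sided permutation p = 0.542). A peak came within 2 kb of the start site in cerebellum P348 alone, with a fold of 2.64.

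HCRT, the precursor of the orexins, had levels of 34.7 and 22.2 in the hypothalamus and between 7.24 and 46.7 elsewhere, with a median of 31.2. Both muscle libraries, spleen P348 and adipose P350 lay above both hypothalamus libraries (difference -0.461, exact two-sided permutation p = 0.917). The start of HCRT overlaps the end of GHDC, which also has a start site in the window, and the region there, 8.41 to 6.75 kb upstream of HCRT, held a peak in all 16 libraries. The HCRT region itself also held a peak in all 16, at folds of 2.38 to 6.29, but a peak covered a start site in both muscle libraries only. In the others it lay toward the 3' end of the gene. A downstream region 4.18 to 5.95 kb from the outer start site held peaks in 14 libraries, both adipose libraries excepted, with hypothalamus folds of 3.45 and 4.74.

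**Figure D3:**
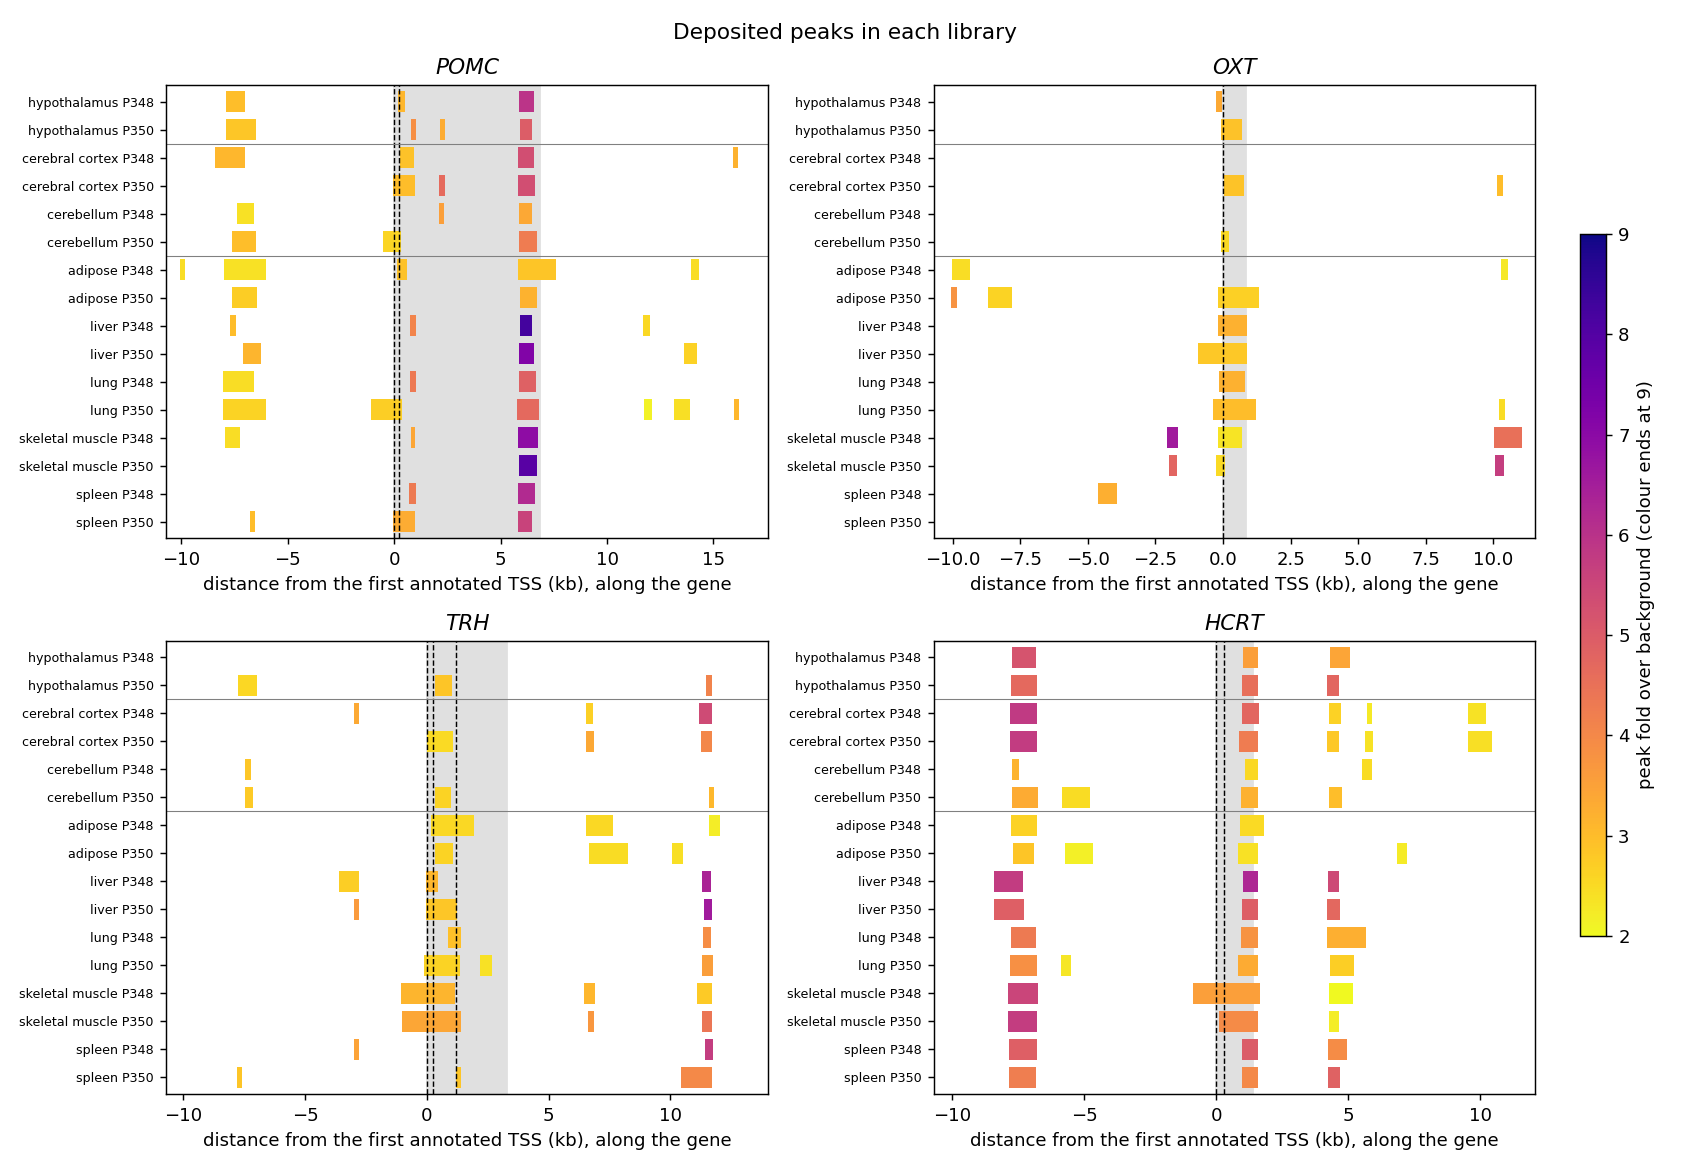
Peaks of POMC, OXT, TRH and HCRT drawn in the same way, by distance in kb from the first annotated start site. The POMC region near 6 kb and the HCRT regions near -7 and 1 kb are filled in all 16 libraries, and the OXT region near -2 kb is filled in the 2 muscle libraries only.

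The 10 genes together showed no shift toward the hypothalamus. The hypothalamus mean was higher than the mean of the others for POMC, NPY and CRH and lower for 7 genes, with a median difference of -1.86 peak bases per Mb, while the median over all 19906 genes was -3.45 and 31.5% of them had a positive difference. Both hypothalamus libraries were above the rest for 1 gene of 10, NPY, and below the rest for none. No gene passed after adjustment by this exact permutation test (smallest adjusted p = 1), which a group of 2 libraries could hardly allow. An unadjusted p under 0.05 occurred for 517 genes, among them NPY and AVP. Skeletal muscle had the highest tissue mean for 4 of the 10, TRH, CRH, HCRT and GHRH, and for 33.1% of all genes. Adipose was highest for POMC, OXT and AGRP, liver for AVP and cerebellum for GNRH1.

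**Figure D4:**
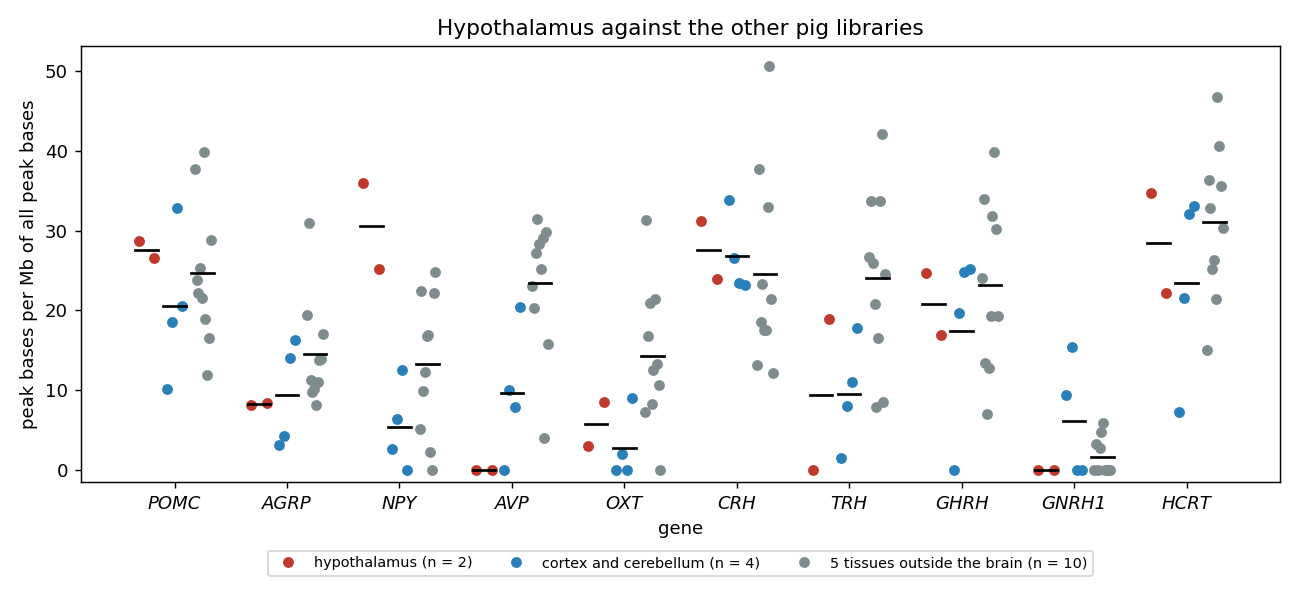
Peak bases per Mb for each gene in the hypothalamus (red, n = 2), cortex and cerebellum (blue, n = 4) and 5 tissues outside the brain (grey, n = 10), 1 point per library with the mean as a bar. The red points stand above all others for NPY only, at 36.0 and 25.2, and within or below the range of the others for the remaining genes.

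Across the 6 brain libraries as a group, AVP was the only gene of the 10 that differed from the 10 libraries outside the brain after adjustment over all genes. Its brain level was 6.41 ± 8.21 (SD, n = 6) against 23.4 ± 8.30 (SD, n = 10), a difference of -17.0 (adjusted p = 0.044 by the exact permutation test over 8008 choices of 6 libraries). This test and the hypothalamus test exchange single libraries and so count the 2 libraries of each tissue as independent, which they are not. The p-values of both tests, above and below, describe these 16 libraries and not the tissues in general. Exchanging tissues only within each animal, so that each pig served as a block, gave an adjusted p of 0.0555 for AVP, and the difference was -9.19 without animal P348 and -24.9 without P350. OXT (3.79 ± 4.06 against 14.3 ± 8.81) had an adjusted exact permutation p of 0.084 and TRH (9.55 ± 7.94 against 24.0 ± 11.0) one of 0.0819. None of the 10 was higher in the brain, where 2.09% of all genes were higher and 6.19% lower after adjustment. The median brain difference was -5.06 for the 10 genes and -8.37 for all genes. In cortex and cerebellum the levels were low for OXT (0 to 9.01) and NPY (0 to 12.6) and spanned 0 to 20.5 for AVP.

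A TSS peak was present in both hypothalamus libraries for 6 of the 10 genes, POMC, OXT, AGRP, NPY, CRH and HCRT, beside 69.2% of all protein-coding genes. When the peak had to cover a start site base, a criterion chosen after seeing the data, this held for NPY alone, beside 55.7% of all genes. Within 500 bp of a start site it held for OXT, NPY and CRH, and the share of all genes at that distance was not computed. Where these TSS peaks existed they were mostly weak for their library. Of the 118 TSS peaks of the 10 genes over the 16 libraries, 85 had a fold below the median of the library's genes with a TSS peak, and in the hypothalamus 9 of 13 did. In hypothalamus P348 and P350, NPY stood at percentiles 15.2 and 5.40 of those genes, OXT at 15.5 and 10.9, POMC at 10.4 and 30.2, and HCRT at 20.0 and 42.7. CRH stood at 53.4 and 52.7. AGRP was highest, at 78.1 and 93.3, but with a peak that covered the annotated start of ATP6V0D1 and no AGRP start site.

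**Figure D5:**
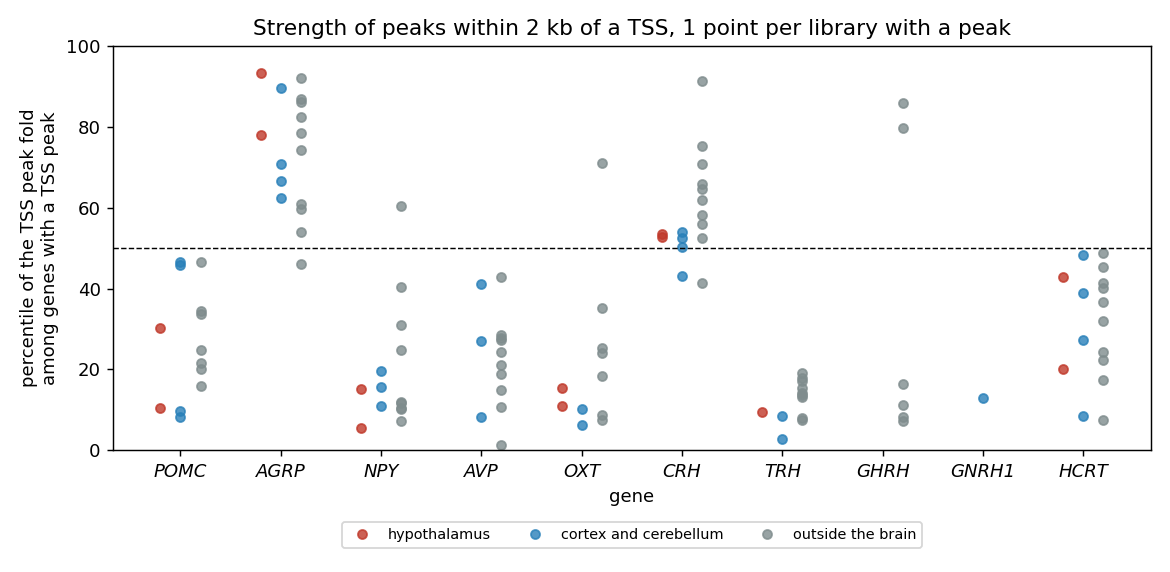
Percentile of the fold of each gene's strongest TSS peak among all genes with a TSS peak in the same library, 1 point per library with a peak, hypothalamus in red, cortex and cerebellum in blue, tissues outside the brain in grey. All POMC, AVP, TRH and HCRT points lie under the dashed median line, while AGRP (46.0 to 93.3) and CRH (41.4 to 91.4) lie mostly above it.

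The genes whose levels over the 16 libraries were most like those of each member were found by Pearson's r of log2(peak bases per Mb + 1), as a description, since all points share their libraries and list lengths. NPY was most like RP1 (r = 0.881), TTLL2 (0.868) and POLQ (0.837). AVP was most like TEX26 (0.938), CDA (0.897) and TNFRSF18 (0.887). POMC was most like F2RL1 (0.899), MROH7 (0.887) and KIF26B (0.849), and AGRP like TMEM220 (0.954), SLC25A16 (0.944) and MEI1 (0.942). OXT (TMEM86B, COL6A3 and SLC25A41, 0.814 to 0.822) and CRH (RSPO3, WWTR1 and FAM160A1, 0.761 to 0.831) had the least close neighbours. TRH resembled CCDC43, ANKS1A and SULT2B1 (0.895 to 0.897), HCRT resembled NTMT1, GRAMD1A and OGT (0.938 to 0.948), and GHRH resembled YTHDF1, SPTBN4 and NQO2 (0.940 to 0.961). No other gene of the 10 appeared among these 27.

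The receptors of these peptides, a list of 16 genes, had peak bases in all 16 cases, and both hypothalamus libraries were above all others for 0 of them. The hypothalamus difference was positive for 11 with a median of 2.53, and 12 had a TSS peak in both hypothalamus libraries. Over all genes tested, 31.5% had a positive difference, the median was -3.45 and 0.548% had both hypothalamus libraries on top. A TSS peak in both was present for 69.2% of all protein-coding genes. These shares are also the background for the lists below. MC4R, the melanocortin receptor that restrains feeding, stood at 7.89 and 26.1 in the hypothalamus and at most at 9.23 elsewhere (difference 13.6, exact permutation p = 0.025). MC4R and TRHR were higher in the brain after adjustment (adjusted exact permutation p = 0.0452 and 0.044). CRHR2, HCRTR2 and NPY2R had the next largest positive differences, 13.2, 7.19 and 6.42, and OXTR and CRHR1 the largest negative ones, -12.4 and -11.8.

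Genes that process precursors or build dense-core vesicles, 10 in all, had positive hypothalamus differences for 9 with a median of 1.51, and none had both hypothalamus libraries on top. PCSK2, a prohormone convertase, stood at 179 and 170 against a median of 84.4 and a maximum of 221 (difference 85.0, exact permutation p = 0.125). PAM, which amidates peptides, stood at 68.0 and 179, CHGA had a difference of 7.99 and CPE one of 5.60, and QPCT had the only negative one, -9.28. PCSK1 was higher in the brain (47.3 against 13.1, adjusted exact permutation p = 0.0232).

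Among 14 other hypothalamic peptide genes, PMCH, which encodes melanin-concentrating hormone of the lateral hypothalamus, was the only one with both hypothalamus libraries above all others. It stood at 16.9 and 14.5 against a median of 0 and a maximum of 13.1. Neither hypothalamus library had a PMCH peak within 2 kb of a start site, and 1 other library did. Over all genes tested, 0.548% had both hypothalamus libraries on top, and no gene passed after adjustment. The difference was positive for 9 of the 14, with a median of 2.73. TAC1 (21.5, exact permutation p = 0.0333), PENK (18.5, exact permutation p = 0.0417) and ADCYAP1 (15.4, exact permutation p = 0.167), named after their values were seen, had larger positive differences than PMCH (12.2, exact permutation p = 0.00833), though each had a hypothalamus library inside the range of the others. PDYN and GAL had the largest negative differences, -8.84 and -6.65. Of 5 sensors of energy state, GHSR, the ghrelin receptor, stood at 61.3 and 18.7 (difference 15.2) and was higher in the brain (43.2 against 16.7, adjusted exact permutation p = 0.0422). GLP1R had a difference of 6.71, and INSR and SOCS3 had differences of -50.1 and -10.1.

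The tissue label was set beside marker genes. For 10 hypothalamic transcription factors the summed level was 503 and 413 in the hypothalamus libraries and 154 to 453 in the others. The difference was positive for 7 of them with a median of 9.56, largest for POU3F2 (118 and 78.3 against at most 82.8), SIM1, ISL1 and OTP. It was most negative for SIX6 and NR5A1 and also negative for LHX6 (-0.846), and none of the 10 had both libraries on top. Of 7 anterior pituitary genes, 1, TBX19, had a positive difference, their summed level was 63.2 and 52.2 against 34.1 to 126 in the other libraries, and POU1F1 and TSHB were at 0 in both hypothalamus libraries. Cortical genes (110 and 142 against 117 to 274), thalamic genes (192 and 153 against 133 to 282), general neuronal genes (272 and 353 against 104 to 599), astrocyte genes (158 and 189 against 131 to 324) and ependymal and tanycyte genes (210 and 102 against 42.8 to 160) gave hypothalamus sums inside the range of the others, except cortical P348 and ependymal P348. The part of tissue makeup in the levels of the 10 peptide genes was not tested.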

How the data were processed

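ATAC-seq peak lists of 16 pig libraries, 1 per tissue and animal, were analysed, and the cattle lists were not used here. Per the labels, libraries were size-selected and sequenced with paired ends, and the submitters' processing notes name Trim Galore 0.4.5, BWA 0.7.17, SAMtools 1.10 and Picard 2.18.17. A shift of read ends is not given in the sources used here. The paper states that peaks were called with MACS2 in broad mode at a q-value limit of 0.05. The deposited columns hold a score, a ratio (fold enrichment over local background) and −log10 p- and q-values, averaged over each peak. By these averages some deposited peaks had a q-value above 0.05, and they were kept in the main setting. Examples are an AVP peak in adipose P348 (−log10 q of 1.01) and the upstream NPY peak in hypothalamus P350 (1.17). Read depth was not used here, so no interval is given, and list length is the only depth measure. The p-values measure spread between libraries of 2 littermates.

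Genes and start sites came from NCBI annotation release 106 of Sscrofa11.1 (the study used another annotation), and all 270 sequence names of the lists matched it. Peak bases, counts and exact permutation tests were computed with Python 3.11.15 (numpy 2.4.6, pandas 2.3.3), checked on simulated data, with Benjamini-Hochberg adjustment over 19906 genes. An animal's name marks the same pig, so it pairs libraries across tissues. The correlation of P348 minus P350 differences between tissues averaged -0.0258 over 28 pairs of tissues (-0.489 to 0.384). Members and lists were chosen with earlier results of these data known. Named were all members, list genes with both hypothalamus libraries on top or otherwise up to 4 most positive and 2 most negative differences, the 3 most similar genes for members with peak bases in at least 8 libraries, and up to 2 regions per member with peaks in both hypothalamus libraries and the fewest others. Other regions named (3' POMC, muscle and upstream regions of GHRH, OXT, AGRP, AVP and TRH, the NPY intron), TRHR, PCSK1 and the motifs were chosen after their values were seen. Sequences are from the RefSeq genome. The oligodendrocyte marker list and 1 promoter sequence are not reported here.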

Additional observations from a re-analysis of the deposited data

Results flagged for a closer look

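In 20 sets of values (10 genes, each over 6 brain libraries and over 10 libraries outside the brain), 2 had a library far from the rest by Dixon's criterion at the 95% level, and chance flags about 1 set in 20. GHRH in cerebellum P348 stood at 0 peak bases per Mb, the lowest of the brain libraries, with the next at 16.9. This library had the longest peak list of the 16, 217308 peaks, and the part of list length in the value was not tested. AGRP in adipose P350 stood at 31.0, the highest outside the brain, with the next, adipose P348, at 19.4. That library was also the only one with a peak over an AGRP start site.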

How the results depend on the processing

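Of the 10 genes, 2 (NPY and AVP) had an unadjusted exact permutation p under 0.05 against the other tissues, 1 (NPY) had both hypothalamus libraries on top and 1 (AVP) differed between brain and other tissues after adjustment. These 3 counts became 0, 0 and 0 with peaks limited to a q-value under 0.01, 1 (CRH), 0 and 0 under 0.0001, 1 (NPY), 0 and 0 with every list shortened to 99960 peaks, 2 (AVP and OXT, whose wider windows overlap), 0 and 5 (all lower in brain) with a 50 kb window, 0, 0 and 0 with only 2 kb around each start site, and 2, 0 and 0 with bases not divided by all peak bases. With peaks counted per 100000 they were 2, 1 and 0. With each animal as a replicate block the first count was 2 and the brain count 0. The brain calls over all genes moved too. With the 50 kb window 5457 of 20282 genes tested were lower in brain after adjustment, beside 1232 of 19906 in the main setting. With only 2 kb around each start site 0 genes were called. Peak bases outside 2 kb of the start sites of other genes, an alternative chosen after seeing the data, and genes with peak bases in at least 4 libraries changed none of the counts computed for them. No alternative had a gene of the 10 higher in the brain (0). The count with a TSS peak in both hypothalamus libraries, 6, became 3 at a q-value under 0.01 (AGRP, CRH and HCRT), 3 under 0.0001 and 3 within 500 bp. It became 7 within 5 kb, where GHRH joined, and stayed at 6 with lists of equal length. The shares of all genes under these limits were not computed, so it is not known whether other genes change alike. Leaving out an animal gave 6 to 7 for the TSS peak count and 1 for libraries on top. It leaves 1 hypothalamus library against 7, whose smallest exact permutation p is 0.125, so tests without an animal were not run.

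Some differences of hypothalamus minus others changed sign, and the cause was not tested. Of these, NPY had an unadjusted exact permutation p under 0.05 and the others did not. At a q-value under 0.01 POMC became -3.15, HCRT 14.7 and GHRH 15.9, and under 0.0001 NPY -2.99, HCRT 34.2 and GHRH 16.3. With equal lists CRH became -0.133, HCRT 0.813 and GHRH 0.896. CRH became -5.17 with a 50 kb window, POMC -0.744 with 2 kb around start sites, and HCRT 0.0049 in peaks per 100000. In undivided bases POMC became -270.2 and CRH -420.7. Without an animal CRH ran from -3.34 to 8.25, HCRT from -7.61 to 6.69 and GHRH from -6.57 to 5.04.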
